A study of Mus musculus with 8 samples.

Results

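Aminoacyl-tRNA synthetases are the enzymes that join each amino acid to its own transfer RNA, the step that supplies the ribosome. The 39 genes described here were chosen by name from a count table of 24537 genes: 20 enzymes that work in the cytosol, 16 that work in mitochondria, and 3 scaffold proteins of the cytosolic multisynthetase complex, Aimp1, Aimp2 and Eef1e1. Of the 20 cytosolic genes, Gars and Kars also supply the mitochondrial enzyme. All 39 were found by their symbol and all passed the filter on low counts. Older names alone matched 2 further rows (Dtd1 and 4930503L19Rik), which were set aside, and Farsb and Vars were kept under their own symbols although they also carry the older names Farsa and Vars2. Poly(A) RNA was sequenced from pancreatic islets, the hormone-secreting cell clusters of the pancreas, of male mice aged 12 weeks, with 4 Wfs1KO samples (a knockout of Wfs1, which encodes the endoplasmic reticulum membrane protein wolframin) and 4 WT samples. Islets had been freed with collagenase and purified on a density gradient, so each sample mixes endocrine and other cells. The labels do not say how the knockout was made, nor whether a sample pools animals, so p-values measure the spread between these samples.

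Cells hold largely separate sets of synthetases for cytosolic and for mitochondrial protein synthesis, all encoded in the nucleus. In mammals several cytosolic synthetases are bound together in the multisynthetase complex, while the others are free. Genes of many cytosolic synthetases are targets of ATF4, a transcription factor whose translation increases when the kinases PERK or GCN2 phosphorylate the initiation factor eIF2, as happens in endoplasmic reticulum stress or when uncharged tRNA accumulates.

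Libraries held 16395855 to 27057617 exon counts in Wfs1KO and 15810830 to 21552731 in WT. Wfs1 stood at 101.1, 105, 125 and 98.9 CPM (counts scaled to a common library size) in Wfs1KO replicates 1 to 4, against 182, 156, 190 and 188 CPM in WT, so the counted RNA was lower but not absent. Islet markers were present, and all 5 beta cell markers fell (summed level 85218 to 107064 CPM in Wfs1KO and 140045 to 183330 CPM in WT). All 6 endothelial markers rose (560.4 to 664 CPM in Wfs1KO, 396 to 465 CPM in WT). Of 5 stellate cell markers 2 rose (Pdgfrb and Rgs5), while the collagen genes Col1a1, Col1a2 and Col3a1 did not pass. All 5 summed to 271 to 305 CPM in Wfs1KO and 167 to 254 CPM in WT. Most of that sum was Rgs5, with a mean of 219 CPM in Wfs1KO and 135 CPM in WT. Both delta cell markers rose, with a median log2 fold change of 0.36 and summed levels that overlapped (2205 to 3139 CPM in Wfs1KO, 1919 to 2304 CPM in WT), and 0 of 4 alpha cell markers were called (18522 to 25869 CPM in Wfs1KO, 15657 to 20508 CPM in WT). Macrophage markers summed to 34.7 to 97.5 CPM in Wfs1KO and 34.6 to 61.0 CPM in WT, with 0 of 4 called. Acinar markers summed to 9257 to 64473 CPM in Wfs1KO and 30245 to 67371 CPM in WT, with Amy2a5 near 0 in both genotypes and 0 of 9 tested markers called. With the acinar score as a covariate 12 cytosolic members rose. The part of the other cell types in the results was not tested. In bulk islets, fewer cells of a type and less RNA per cell cannot be told apart.

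Islets of Wfs1KO mice had more RNA of most cytosolic synthetases, while RNA of the mitochondrial enzymes showed little difference between the genotypes. Of 20 cytosolic members 11 rose, 0 fell and 9 did not pass the test (quasi-likelihood test of edgeR, Benjamini-Hochberg adjusted p under 0.05). Among all 15733 genes tested, 18.9% were called, 10.4% higher and 8.49% lower in Wfs1KO. At an adjusted p under 0.01, 9 cytosolic members rose, beside 6.11% of all genes. Of 16 mitochondrial members 0 rose, 1 fell (Aars2) and 15 did not pass. Of the 3 scaffold proteins 1 rose (Aimp1). The median log2 fold change of Wfs1KO over WT was 0.32 for cytosolic members and -0.04 for mitochondrial members, beside 0.01 for all genes tested.

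**Figure D1:**
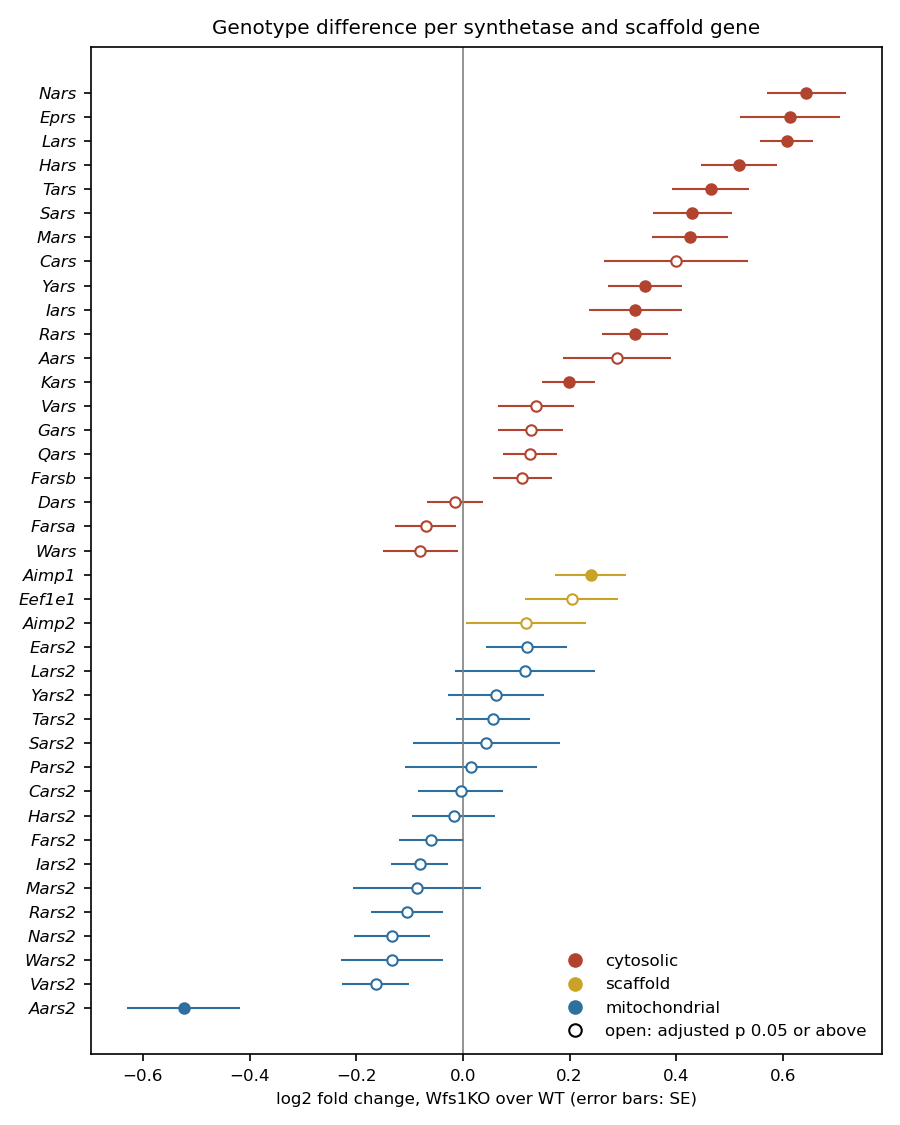
Log2 fold change of Wfs1KO over WT (x axis, error bars SE) for each gene (y axis), ordered within cytosolic, scaffold and mitochondrial members. Filled points have an adjusted p under 0.05: 11 cytosolic points, Aimp1 and Aars2 are filled, and the cytosolic points run from 0.64 (Nars) to -0.08 (Wars).

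Summed over the 20 cytosolic genes, libraries held 2779, 2937, 2722 and 2974 CPM in Wfs1KO replicates 1 to 4 and 2371, 2287, 2255 and 1987 CPM in WT replicates 1 to 4. The genotypes did not overlap, with means of 2853 ± 122 CPM in Wfs1KO and 2225 ± 166 CPM in WT (SD, n = 4 each), a ratio of 1.28. Summed over the 16 mitochondrial genes, libraries held 393, 422, 417 and 415 CPM in Wfs1KO and 403, 395, 446.5 and 426 CPM in WT, and the genotypes overlapped (412 ± 12.9 CPM in Wfs1KO and 418 ± 23.2 CPM in WT). The lowest WT library, replicate 4, was the lowest of the WT libraries for 10 of the 20 cytosolic genes.

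The libraries also parted by replicate number, with replicates 1 and 2 away from 3 and 4 on the first principal component in both genotypes. In replicates 1 and 2 alone the cytosolic median was 0.21 and 9 cytosolic members rose. The median was 0.41 and 9 rose in replicates 3 and 4 alone. The cytosolic median exceeded the mitochondrial one by 0.36 in all libraries, by 0.26 in replicates 1 and 2 and by 0.51 in replicates 3 and 4. Without Gars and Kars, which serve both compartments, 10 of 18 cytosolic members rose, with a median of 0.33.

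**Figure D2:**
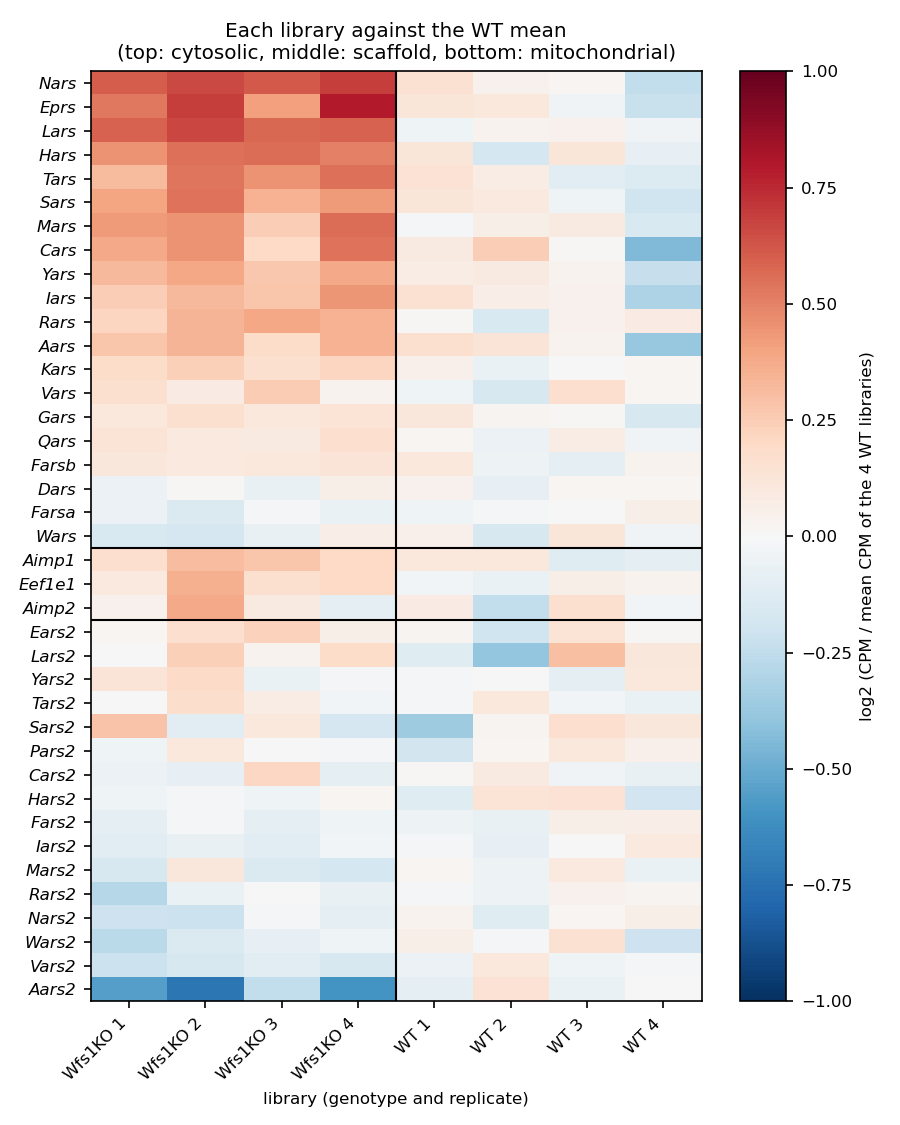
Log2 of each library's CPM over the mean of the 4 WT libraries (colour), with genes as rows and libraries as columns, Wfs1KO left of WT. The upper rows are red across all 4 Wfs1KO columns, from Nars to Rars, while most mitochondrial rows stay pale, apart from Aars2, blue in the Wfs1KO columns.

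Among the 8 cytosolic enzymes of the multisynthetase complex 6 rose and 2 did not pass, with a median log2 fold change of 0.32. Eprs, which joins both glutamate and proline to their tRNAs (NM_029735, chromosome 1, 185363095 to 185428355 in mm10), stood at 346, 388, 319 and 416 CPM in Wfs1KO replicates 1 to 4 and at 261, 259, 235 and 206 CPM in WT. All 4 Wfs1KO libraries lay above every WT library, and the log2 fold change was 0.61 (SE 0.09, 95% interval 0.43 to 0.80, adjusted p = 6.55e-04).

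Lars, the leucine enzyme and also a reported leucine sensor of the mTORC1 pathway (NM_134137, chromosome 18, 42202349 to 42262071), was the member with the smallest adjusted p. It stood at 162, 171, 160.4 and 162 CPM in Wfs1KO and at 104, 110, 111 and 105 CPM in WT. The libraries of each genotype lay close together and far from the other genotype, and the log2 fold change was 0.61 with an SE of 0.05 (95% interval 0.51 to 0.70, adjusted p = 2.70e-06).

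Mars, which charges both the initiator and the elongator methionine tRNA (NM_001171582, chromosome 10, 127296221 to 127311786), stood at 122, 123, 107 and 133 CPM in Wfs1KO and at 89.5, 94.2, 96.4 and 81.4 CPM in WT. The genotypes did not overlap, and Mars rose by 0.43 (SE 0.07, adjusted p = 8.91e-04), although not in replicates 3 and 4 alone (0.43, adjusted p = 0.0653). Its exons share 68 of 2963 bases with Ddit3 on the other strand, and the counting used no strand, so reads in that stretch cannot be told apart. Rars, the arginine enzyme, rose by 0.32 (adjusted p = 0.00252).

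Iars, the isoleucine enzyme, rose by 0.32 (adjusted p = 0.0209), with 119 ± 7.17 CPM in Wfs1KO and 95.1 ± 12.6 CPM in WT. It was not called with the replicate number as a block (adjusted p = 0.0595), without Wfs1KO replicate 2 (0.0539) or without Wfs1KO replicate 4 (0.0575), and stood at 0.15 in replicates 1 and 2 alone. Kars, the lysine enzyme, rose by 0.20 (adjusted p = 0.0118), and with similar log2 fold changes but no call in replicates 1 and 2 alone (0.197, adjusted p = 0.0965) and in 3 and 4 alone (0.171, adjusted p = 0.146). Qars, the glutamine enzyme, had a log2 fold change of 0.13 (adjusted p = 0.106) with all 4 Wfs1KO libraries above the WT libraries. Dars, the aspartate enzyme, stood at 68.2 ± 2.85 CPM in Wfs1KO and 68.9 ± 2.56 CPM in WT, a log2 fold change of -0.02 with a 95% interval of -0.12 to 0.09.

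Among the 12 cytosolic enzymes outside the complex 5 rose and 7 did not pass, with a median of 0.32, and the medians of these groups differed by 0.0077. Nars, the asparagine enzyme (NM_027350, chromosome 18, 64499647 to 64516557), had the largest fold change of the 39 genes. It stood at 279, 289, 281 and 297 CPM in Wfs1KO and at 204, 189, 186 and 155 CPM in WT. The lowest Wfs1KO library was well above the highest WT library, and the log2 fold change was 0.64 (SE 0.07, 95% interval 0.50 to 0.79, adjusted p = 5.36e-05).

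Hars, the histidine enzyme (NM_008214, chromosome 18, 36766528 to 36783205), stood at 43.6, 46.8, 47.1 and 45.4 CPM in Wfs1KO and at 34.7, 28.3, 34.7 and 30.1 CPM in WT. It rose by 0.52 (SE 0.07, adjusted p = 2.00e-04). Its mitochondrial counterpart Hars2 starts 4 bases away on the other strand, so the pair is arranged head to head. Hars2 stood at 33.2 ± 0.637 CPM in Wfs1KO and 33.7 ± 4.07 CPM in WT, a log2 fold change of -0.02 (95% interval -0.17 to 0.13). Hars was called and the gene that starts beside it was not.

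Tars, the threonine enzyme (NM_033074, chromosome 15, 11383663 to 11399658), stood at 97.5, 113, 107 and 114 CPM in Wfs1KO and at 86.5, 82.3, 72.8 and 71.2 CPM in WT. The genotypes did not overlap, and Tars rose by 0.46 (SE 0.07, adjusted p = 5.73e-04), with 0.30 in replicates 1 and 2 alone and 0.61 in replicates 3 and 4 alone. Sars, the serine enzyme, which also charges the selenocysteine tRNA with serine, had the most reads of the members outside the complex and rose by 0.43 (363 ± 21.0 CPM in Wfs1KO, 269 ± 26.9 CPM in WT, adjusted p = 0.00112). Yars, the tyrosine enzyme, rose by 0.34 (adjusted p = 0.00336).

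Aars and Cars, the alanine and cysteine enzymes, had log2 fold changes inside the range of the called members but wider spread among libraries. Aars stood at 265 ± 13.5 CPM in Wfs1KO and 217 ± 34.3 CPM in WT (0.29, SE 0.10, adjusted p = 0.0690), and passed with DESeq2 (0.0261), with no filter (0.0377), with a block of replicates 1 and 2 against 3 and 4 (0.0303) and without WT replicate 1 (0.0475). Without WT replicate 4, the lowest library, its log2 fold change was 0.18 and it did not pass. Cars stood at 97.7 ± 9.64 CPM in Wfs1KO and 74.2 ± 14.1 CPM in WT (0.40, SE 0.14, adjusted p = 0.0730). It passed with DESeq2 (0.0110), with the acinar score as a covariate (0.0410) and without WT replicate 2 (0.0295) or WT replicate 4 (0.0380).

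The other members outside the complex lay nearer 0 than the called members and did not pass. Gars, the glycine enzyme, mutated in an inherited motor neuropathy, had a log2 fold change of 0.13 (95% interval 0.008 to 0.25, adjusted p = 0.174). That of Vars, the valine enzyme, was 0.14 (95% interval -0.003 to 0.28, adjusted p = 0.215). Wars, the tryptophan enzyme, which interferon is known to induce, stood at -0.08 (95% interval -0.22 to 0.06). Farsa and Farsb encode the alpha and beta subunits of the phenylalanine enzyme, which work as a tetramer of both. Farsa stood at -0.07 (95% interval -0.18 to 0.04) and Farsb at 0.11 (95% interval 0.002 to 0.22, adjusted p = 0.194). Of the 2199 exon bases of Farsb, 248 overlap Sgpp2 on the other strand.

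Synthetases fall into class I and class II by the fold of their catalytic domain. Of 9 cytosolic class I enzymes 5 rose (median log2 fold change 0.32), and of 10 class II enzymes 5 rose (median 0.24), while Eprs holds a domain of each.

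A composite element bound by ATF4 with C/EBP proteins, searched as the letters TGATGNAA on both strands, was looked up in promoter windows from 250 bases before to 50 bases after each start (RefSeq, GRCm38.p6, the same build as mm10). Windows were found for 30 of the 39 genes, and not for Cars, Hars, Lars, Nars, Rars, Vars, Wars, Hars2 and Pars2. The letters occurred in 5 of 13 cytosolic members, 0 of 14 mitochondrial members and 0 of 3 scaffold members with a window. Of all 27025 genes with a window, 4.51% held them. A match in each of the 5 genes is printed to show the letters counted, each in the direction of the motif and with the motif in capitals:
Aars: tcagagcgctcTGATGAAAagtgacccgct
Gars: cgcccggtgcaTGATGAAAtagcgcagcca
Iars: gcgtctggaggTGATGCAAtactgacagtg
Tars: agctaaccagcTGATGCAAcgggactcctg
Yars: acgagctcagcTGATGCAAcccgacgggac
Coordinates are those of the printed stretch, and distances those of the motif. An Aars match, on the minus strand in chr8:111033840-111033869, begins 9 bases after the start. The Gars match (minus strand, chr6:55037960-55037989) ends 23 bases before the start and the Tars match (plus strand, chr15:11399655-11399684) ends 8 bases before it. The Iars match (minus strand, chr13:49682126-49682155) and the Yars match (plus strand, chr4:129189895-129189924) begin 7 and 3 bases after the start. Of these 5 genes Iars, Tars and Yars rose, while Aars and Gars did not pass. Eprs, Mars, Sars and Kars rose without these letters in their window. A match is a description of the letters and not a binding site.

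The 3 scaffold proteins hold the multisynthetase complex together. Aimp1, whose cleaved form is a secreted cytokine, stood at 48.3, 53.4, 52.2 and 49.4 CPM in Wfs1KO and at 46.1, 46.2, 39.5 and 40.2 CPM in WT. It rose by 0.24 (SE 0.07, adjusted p = 0.0216), but not with the acinar score as a covariate (adjusted p = 0.0587), without Wfs1KO replicate 2 or 3 (0.0637 and 0.0665) or without WT replicate 3 or 4 (0.0692 and 0.0640), and stood at 0.12 in replicates 1 and 2 alone. Its call was thus lost in 4 of the 8 omissions of a library. Aimp2 stood at 13.4, 17.0, 13.9 and 12.3 CPM in Wfs1KO and at 13.8, 10.97, 14.6 and 12.8 CPM in WT. The genotypes overlapped (0.12, SE 0.11, adjusted p = 0.532). Eef1e1 stood at 11.03, 13.2, 11.5 and 11.8 CPM in Wfs1KO and at 10.1, 9.87, 10.7 and 10.6 CPM in WT. All Wfs1KO libraries were above the WT libraries, but the difference did not pass (0.20, SE 0.09, adjusted p = 0.125).

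Of the mitochondrial enzymes only Aars2 was called, and it was lower in Wfs1KO. Aars2, the mitochondrial alanine enzyme (NM_198608, chromosome 17, 45506841 to 45520843), stood at 9.38, 8.32, 11.6 and 9.10 CPM in Wfs1KO and at 12.9, 15.2, 13.2 and 13.8 CPM in WT, with 172 to 281 counts per library. The genotypes did not overlap, and the log2 fold change was -0.52 (SE 0.11, 95% interval -0.73 to -0.32, adjusted p = 0.00341). It stood at -0.39 and did not pass in replicates 3 and 4 alone (adjusted p = 0.0972).

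Vars2, the mitochondrial valine enzyme, stood at 21.0, 21.8, 22.6 and 21.8 CPM in Wfs1KO and at 23.5, 26.2, 23.7 and 24.2 CPM in WT. Every Wfs1KO library was below every WT library, but the difference of -0.16 did not pass (SE 0.06, adjusted p = 0.0856). Wars2, the tryptophan enzyme, stood at 10.3, 11.2, 11.7 and 12.1 CPM in Wfs1KO and at 12.9, 12.2, 13.8 and 10.7 CPM in WT, with overlap between the genotypes (-0.13, SE 0.10, adjusted p = 0.382).

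The other 13 mitochondrial members had log2 fold changes between -0.13 (Nars2) and 0.12 (Ears2), with adjusted p from 0.232 upward. Those below 0 were Nars2, Rars2, Mars2, Iars2, Fars2, Hars2 and Cars2, and those above 0 were Ears2, Lars2, Yars2, Tars2, Sars2 and Pars2. The upper ends of their 95% intervals reached at most 0.38 (Lars2), below the 0.61 of Lars but above the cytosolic median of 0.32. Those of Lars2, Sars2 (0.31), Ears2 (0.27), Pars2 (0.26) and Yars2 (0.24) exceeded the 0.20 of Kars, the smallest rise among called cytosolic members. A rise of that size is thus not excluded for these genes. For Iars2, the isoleucine enzyme, the interval was -0.19 to 0.02, and for Tars2, the threonine enzyme, -0.08 to 0.19. Precision was lowest for Sars2 (SE 0.14, 119 to 278 counts per library) and for Lars2. Lars2, the leucine enzyme, was the most abundant mitochondrial member per length and varied most in WT, with 66.0 to 106 CPM (93.6 ± 7.33 CPM in Wfs1KO, 86.4 ± 17.5 CPM in WT). In replicates 1 and 2 alone Lars2 was higher in Wfs1KO (0.35, adjusted p = 0.0232), and in replicates 3 and 4 it stood at -0.11. Iars2 shares 85 of 4734 exon bases with Rab3gap2 on the other strand.

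Within a library, the ratio of the cytosolic to the mitochondrial enzyme of an amino acid does not depend on how libraries are scaled, and it was higher in Wfs1KO for 15 of 16 pairs on average. Counts of Nars were 15.1 times those of Nars2 in Wfs1KO and 8.80 times in WT (geometric means), a difference of 0.78 in log2 ratio. The log2 ratio was 3.96, 4.02, 3.78 and 3.93 in Wfs1KO replicates 1 to 4 and 3.26, 3.31, 3.14 and 2.84 in WT, so the genotypes were apart. For alanine, where the cytosolic gene did not pass and the mitochondrial gene fell, the difference was 0.83, with ratios of 27.7 in Wfs1KO and 15.6 in WT.

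For the neighbouring genes Hars and Hars2, the log2 ratio was 0.41, 0.49, 0.53 and 0.42 in Wfs1KO and 0.16, -0.39, -0.10 and 0.04 in WT. Hars counts exceeded Hars2 counts in every Wfs1KO library and in 2 of 4 WT libraries, but these counts are not scaled to length. In CPM per kilobase of counted transcript, Hars was above Hars2 in both genotypes. Hars stood at 23.2 in Wfs1KO and 16.2 in WT, and Hars2 at 10.6 in Wfs1KO and 10.8 in WT. The genotypes did not overlap in 9 of the 16 pairs, in each case with Wfs1KO higher. Among single genes 12.3% had every Wfs1KO library above every WT library, and no such share was computed for ratios. The 9 pairs were the alanine, histidine, isoleucine, methionine, asparagine, proline (Eprs over Pars2), arginine, threonine and tyrosine pairs. In all but the alanine pair the cytosolic gene was itself called higher, so these pairs partly repeat the calls of single genes. The smallest differences were those of Wars over Wars2 (0.05) and Farsa over Fars2 (-0.01), and the median over the pairs was 0.42. No test was made of these ratios, and the proline and glutamate pairs share Eprs.

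**Figure D3:**
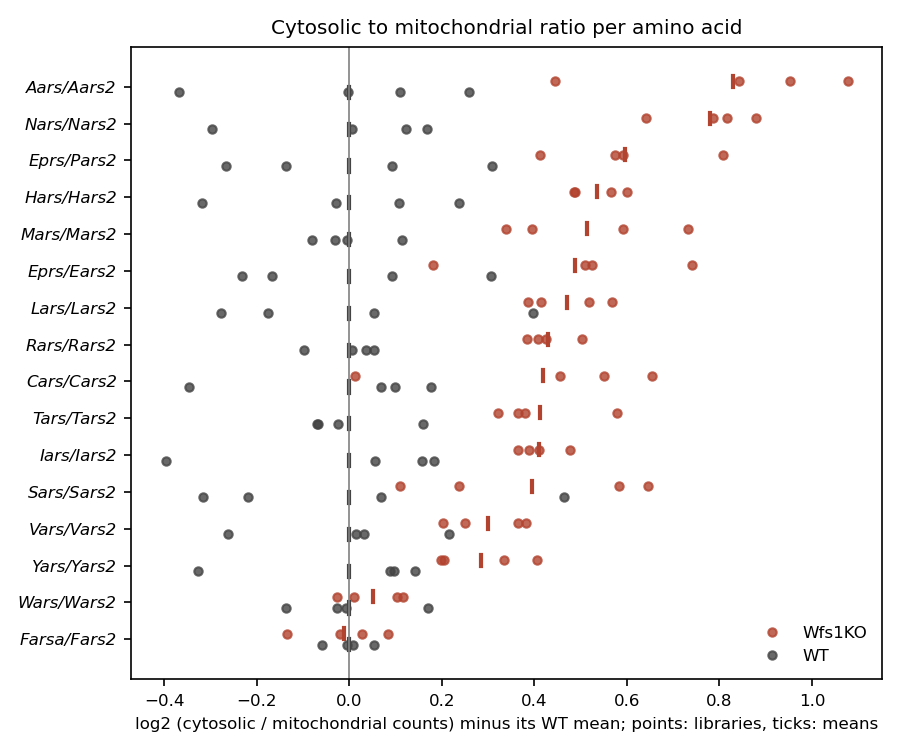
Log2 ratio of cytosolic to mitochondrial counts minus its WT mean (x axis) for 16 pairs (y axis), with a point per library and a tick at each mean. Wfs1KO points lie right of all WT points in 9 pairs, and the means are furthest apart for Aars over Aars2 (0.83) and Nars over Nars2 (0.78).

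Levels of different genes were compared as CPM per kilobase of counted transcript. Cytosolic members had a median level of 34.7 in Wfs1KO and 29.3 in WT, and mitochondrial members 6.12 in Wfs1KO and 6.22 in WT. Gars, the highest in WT, was at 108 ± 2.01 in Wfs1KO and 99.3 ± 7.70 in WT, and Pars2, the lowest in both genotypes, at 1.66 in Wfs1KO and 1.64 in WT. Lars2 was the highest mitochondrial member, at 24.3 ± 1.90 in Wfs1KO and 22.4 ± 4.53 in WT, above the lowest cytosolic one, Farsa. Iars2 and Rars2, at 18.9 and 18.6 in WT, were also above Farsa.

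Nars stood at 109 ± 3.04 CPM per kilobase in Wfs1KO and 69.7 ± 7.91 in WT, so that in Wfs1KO it was beside Gars while in WT it was below it. Sars stood at 98.2 ± 5.69 in Wfs1KO and 72.9 ± 7.28 in WT. Eprs stood at 76.3 ± 9.0 in Wfs1KO and 49.9 ± 5.33 in WT, and Aars at 71.8 ± 3.66 in Wfs1KO and 58.8 ± 9.29 in WT. The order of the mean levels of Eprs and Aars differs between the genotypes. Aars was above Eprs in every WT library, while their order varied among the Wfs1KO libraries. Sars was above Nars in every WT library, in some by little. These means lie within the sum of their SDs, but both genes of a pair were measured in the same libraries, so the SDs do not test the order.

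The 3 scaffold genes were unequal in level. Aimp1 was at 45.7 ± 2.14 CPM per kilobase in Wfs1KO and 38.6 ± 3.29 in WT, Aimp2 at 12.0 ± 1.71 in Wfs1KO and 11.1 ± 1.32 in WT, and Eef1e1 at 11.5 ± 0.903 in Wfs1KO and 10.0 ± 0.380 in WT. The subunit genes of the phenylalanine enzyme were also unequal, with Farsa at 15.3 ± 0.576 in Wfs1KO and 16.1 ± 0.507 in WT, and Farsb at 24.1 ± 0.220 in Wfs1KO and 22.3 ± 1.38 in WT.

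**Figure D4:**
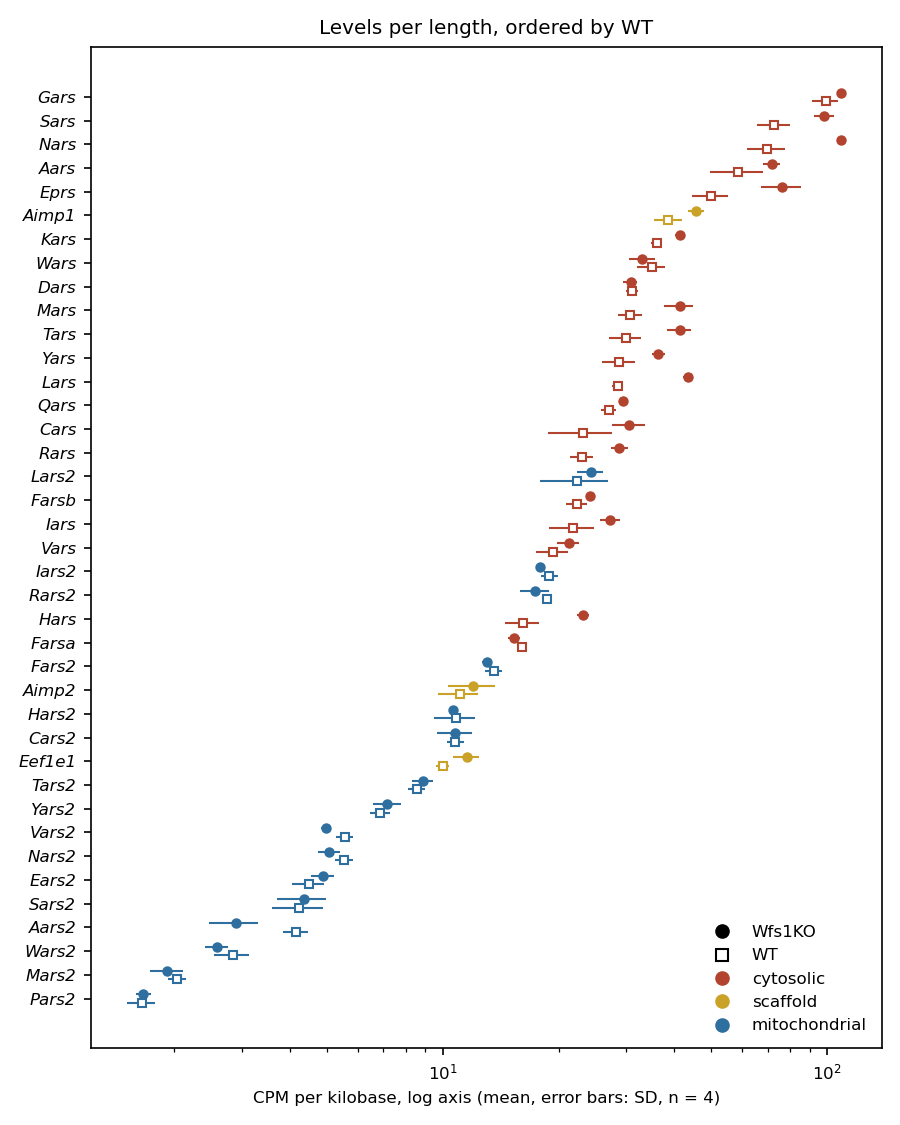
Mean CPM per kilobase (x axis, log scale, error bars SD, n = 4 each) of each gene (y axis, ordered by WT), with filled circles for Wfs1KO and open squares for WT. Cytosolic genes fill most of the upper part, from Gars at 99.3 in WT, and mitochondrial genes most of the lower part, down to Pars2 at 1.64. Lars2, Iars2 and Rars2 lie above some cytosolic genes. Filled circles lie right of the squares for Nars, Eprs and Lars.

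Of 7 genes of cytosolic elongation factors 5 rose, 0 fell and 2 did not pass (median log2 fold change 0.23). Among all genes tested 10.4% rose. Eef1a1, the factor that carries charged tRNA, rose by 0.30 (adjusted p = 0.00533). Its exchange factor subunits Eef1b2 and Eef1g rose by 0.27 and 0.24. Eif5a, a factor for difficult peptide bonds, rose by 0.20 (adjusted p = 0.0329), as did Eef1d (0.17, adjusted p = 0.0380), a member of the list that is named here because it completes the count. With the replicate block Eef1d was not called (adjusted p = 0.0602) and 4 of the 7 rose. The calls of Eif5a and Eef1d were lost when any of several single libraries was left out, and with DESeq2 size factors. Without Wfs1KO replicate 1 or 3 or WT replicate 1 or 2, 3 of the 7 rose, and 3 rose with the acinar score as a covariate. Replicates 3 and 4 alone gave 1.

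Of 12 genes of mitochondrial translation factors and tRNA amidation 0 rose and 0 fell, with edgeR and with DESeq2, and 0 had an unadjusted p under 0.05. Their median log2 fold change was -0.05 and their values ran from -0.12 to 0.13. 

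Of 12 genes that handle tRNA 2 rose, 1 fell and 9 did not pass (median log2 fold change 0.01), so 3 of 12 were called, a share near the 18.9% of all genes tested. Xpot, which exports tRNA from the nucleus, rose by 0.50 (168 ± 20.6 CPM in Wfs1KO, 119 ± 12.4 CPM in WT, adjusted p = 0.00292), with 0.29 in replicates 1 and 2 alone. Sepsecs, which completes selenocysteine on its tRNA after Sars has charged it with serine, fell by 0.43 (54.1 ± 5.65 CPM in Wfs1KO, 73.0 ± 7.75 CPM in WT, adjusted p = 0.00404). In replicates 3 and 4 alone Sepsecs stood at -0.19 and did not pass (adjusted p = 0.131).

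The list named amino acid response holds 9 genes, among them Atf4 and the genes of the kinases PERK and GCN2. Both kinases act through ATF4, so the list does not tell endoplasmic reticulum stress from accumulation of uncharged tRNA. Of these 9 genes 7 rose, 0 fell and 2 did not pass (median 0.77). Among all genes tested 10.4% rose. Asns, which makes asparagine, the substrate of Nars, rose by 0.78 (adjusted p = 2.07e-04), Psat1 of serine synthesis by 1.80, Sesn2 by 0.61 and Atf4 itself by 0.35. The kinase genes of the list, chosen for naming after their values were seen, stood at 0.42 for Eif2ak3, which encodes PERK (adjusted p = 0.00584), and at 0.0049 for Eif2ak4, which encodes GCN2 (adjusted p = 0.968). RNA levels do not measure kinase activity, and the part of either kinase was not tested. This list overlaps target lists already examined in these libraries and is no independent evidence. Of the 9 genes 3 were called in replicates 3 and 4 alone, where the log2 fold changes of Asns (0.85) and Sesn2 (0.70), which lost their calls there, were no smaller than in all libraries. With each library left out in turn, 5 to 8 of the 9 rose. Summed over the list, WT replicate 4 held 671 CPM and the other WT libraries 812 to 914 CPM, against 1210 to 1316 CPM in Wfs1KO.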

How the data were processed

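The submitters' processing notes name bcl2fastq, STAR 2.6.0a, HOMER 4.11.1 and DESeq2, and the build mm10. The deposited values are raw counts: per the file headers, HOMER counted exon reads of its RefSeq gene models, kept 1 row for each gene and was given no strand option. The table of comparisons that the authors deposited was not used here, nor were reads.

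The tests used edgeR 4.0.16 under R 4.3.3 (filterByExpr by genotype with minimum count 10 and minimum total 15, TMM scaling, robust quasi-likelihood fit), with the 4 Wfs1KO and 4 WT libraries and no covariate. Adjusted p-values are Benjamini-Hochberg values over all 15733 tested genes, and "rose" or "fell" means an adjusted p under 0.05. SEs are the fold change over the root of F, and 95% intervals of log2 fold changes are normal ones. CPM uses TMM-scaled library sizes. Pair ratios were taken of counts plus 0.5. The common biological coefficient of variation was 10.7%. The members, lists and alternatives were chosen with earlier results of these data known. Per-library values were given for the 6 called members of smallest adjusted p, the 3 mitochondrial members of largest change and the scaffold genes, and up to 4 called genes were named per related list. A called gene of these lists and a promoter match are not reported here.

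Alternatives were DESeq2 1.42.0, its size factors, limma-voom (limma 3.58.1), other filters, the 20 most abundant genes left out, an acinar covariate, blocks, replicates 1 and 2 or 3 and 4 alone, and each library left out. The labels number the replicates without saying what a number stands for. Deviations of same-numbered Wfs1KO and WT libraries from their genotype means correlated across genes at 0.153, 0.443, 0.269 and 0.188. Same-numbered libraries were treated as pairs in the replicate block. Differently numbered libraries were not compared in this way, so these values do not establish a pairing.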

Additional observations from a re-analysis of the deposited data

Results flagged for a closer look

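In 4 of 110 groups of 4 libraries a library stood apart from the other 3, where chance gives about 1 in 20. Lars had 171 CPM in Wfs1KO replicate 2 and 160.4 to 162 CPM in the other Wfs1KO libraries. Cars2 had 22.8 CPM in Wfs1KO replicate 3 and 18.6 to 19.0 CPM in the others. Mars2 had 6.34 CPM in Wfs1KO replicate 2 and 5.20 to 5.31 CPM in the others. The log2 ratio of Yars over Yars2 was 2.58 in WT replicate 4 and 3.0 to 3.05 in the other WT libraries.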

How the results depend on the processing

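The 13 called members kept their direction under all 19 alternatives fitted per gene, and in 233 of 247 values also their call. Calls of Iars, Kars, Mars, Aimp1 and Aars2 were lost in the other 14. With the replicate block 10 cytosolic members rose and 1 mitochondrial member fell, and among members only the call of Iars was lost (adjusted p = 0.0595). Leaving out each library in turn, 10 to 12 cytosolic members rose, the cytosolic median lay between 0.25 and 0.36, the mitochondrial median between -0.069 and -0.025 and their difference between 0.29 and 0.42. The same omissions left 0 to 1 scaffold members, 1 to 2 tRNA handling genes, 3 to 4 elongation genes and 5 to 8 amino acid response genes higher. No scaffold gene (0) was called with the acinar covariate, in replicates 1 and 2 alone or at an adjusted p under 0.01. In replicates 1 and 2 alone the cytosolic median was 0.21 and the difference 0.26, 1 mitochondrial member rose, 1 tRNA handling gene rose and 3 elongation genes rose. In replicates 3 and 4 alone the medians were 0.41 and -0.095 and the difference 0.51, with 0 mitochondrial members and 0 tRNA handling genes lower, 1 tRNA handling gene, 1 elongation gene and 3 amino acid response genes higher. Of the elongation genes 3 rose with DESeq2 size factors, with no filter, without the 20 most abundant genes and with the acinar covariate. Members that did not pass changed sign in 22 values. In replicates 3 and 4 alone these were Aimp2 (-0.071), Cars2 (0.11), Hars2 (0.0020), Lars2 (-0.11), Pars2 (-0.089), Sars2 (-0.17) and Yars2 (-0.062). With the acinar covariate Dars stood at 0.012 and Hars2 at 0.0063, and with no filter Cars2 stood at 0.00089. With single libraries left out, Cars2 ranged from -0.087 to 0.028, Dars from -0.049 to 0.0012, Hars2 from -0.076 to 0.036, Pars2 from -0.042 to 0.054 and Sars2 from -0.058 to 0.10. The cause of these changes was not tested. Depth limits the precision of the least abundant members, down to 81 counts for Pars2, and intervals do not cover differences in cell makeup.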

Other observations

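Besides Hars and Hars2, other members start close to a gene on the other strand. These neighbours, named after their values were seen, shared the sign of the member's log2 fold change except beside Aimp1. Among these neighbours only Mrps12 passed the test. The share of neighbouring genes with the same sign was not computed for the rest of the genome. Kars, which rose by 0.20, starts 5 bases from Terf2ip (0.04, adjusted p = 0.722), and Yars, which rose by 0.34, starts 68 bases from S100pbp (0.05, adjusted p = 0.551). Aimp1 starts 265 bases from Tbck (-0.10, adjusted p = 0.277). Sars2, with a log2 fold change of 0.04, starts 187 bases from Mrps12, a gene of the mitochondrial ribosome that rose by 0.62 (SE 0.08, adjusted p = 1.68e-04). Rars2 (-0.11) starts 16 bases from Orc3 (-0.01, adjusted p = 0.896). Ubfd1 stood at 0.20 (adjusted p = 0.0727) beside Ears2 at 0.12, Wdr25 at -0.18 (adjusted p = 0.240) beside Wars at -0.08, and Pms2 at 0.08 (adjusted p = 0.585) beside Aimp2 at 0.12. D17H6S56E-5 stood at 0.19 (adjusted p = 0.710) beside Vars at 0.14, and Lyrm4 at -0.02 (adjusted p = 0.929) beside Fars2 at -0.06.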
